A study of Mus musculus with 9 samples.

Results

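The caput epididymis of mice whose efferent ducts had been tied was compared with that of mice whose ducts were open. The comparison takes the 3 libraries labelled efferent duct ligation (EDL) and the 3 wild-type libraries (WT), 6 of the 9 libraries of the series, and all 2462 genes of the deposited table. The EDL mice were wild-type in genotype with ligated efferent ducts, and the WT mice were wild-type with no treatment. The remaining 3 libraries, from untreated mice of the W/Wv genotype, whose testes have few germ cells, were read only to show where EDL stood apart from that genotype. All mice were 14 weeks old. The sources used here give neither the strain nor the time between ligation and tissue collection. No sham operation is named, so effects of the surgery and of the block of the ducts cannot be told apart. Whether each library of a group is a different animal is not stated in the labels, so the p-values measure only the scatter between libraries, which may be technical.

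The efferent ducts carry fluid and sperm from the testis into the head of the epididymis, the caput. Proteins in that fluid act on the epithelium at the start of the duct, a route called lumicrine signalling, in which the ligand NELL2, made by germ cells, acts through the receptor ROS1 and leads to secretion of the protease OVCH2. The epithelium below this route secretes lipocalins, cystatins, defensins and peroxidases into the lumen and takes up fluid, ions and bicarbonate, which together set the milieu in which sperm mature. Among the abundant genes of the caput, Gpx5, a secreted glutathione peroxidase, had 26536, 25122 and 28825 FPKM in WT and 27349, 25001 and 26629 FPKM in EDL. Spag11b, a defensin-like secreted peptide, had 21200.0, 19366 and 20915 FPKM in WT and 19257, 16152 and 18123 FPKM in EDL. Neither passed the test (limma adjusted p = 0.79 and limma adjusted p = 0.062), although every EDL library had less Spag11b than every WT library. Both transcripts were thus abundant in both groups, but they do not stand for the other epithelial markers. Of 9 principal cell markers tested, Gpx5 among them, 6 fell (66.7%, beside 35.9% of all genes), 1 rose and 2 did not pass. Of 22 initial segment and proximal caput genes tested, 11 fell (50%), 8 rose (36.4%, beside 39.4%) and 3 did not pass.

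Levels are the deposited FPKM, fragments scaled to transcript length and library size. Changes are differences of log2(FPKM + 1), and those of genes at low levels come out too small. A gene passed the test, and is said to have risen or fallen, at an adjusted p under 0.05 by limma. The table holds 3728405 to 4793224 recovered reads in each of the 6 libraries. Of the 2013 genes tested, 75.3% passed, 39.4% having risen and 35.9% fallen, so a share of members near these values says little about any group of genes. The groups did not overlap for 77.4% of the genes tested, and some genes were named by a rule that asked for this. A lack of overlap therefore sets no named gene apart. The table is only a part of the transcriptome, and the sources used here do not say how its genes were chosen. The WT libraries varied more than the EDL libraries, with a median SD on the log2(FPKM + 1) scale of 0.0995 against 0.0623. In bulk tissue, fewer cells of a type and less RNA per cell cannot be told apart.

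The falls went deeper than the rises. At 2-fold or more, 225 genes fell (11.2% of those tested) and 143 rose (7.1%), together 18.3%. At 4-fold or more the counts were 75 and 18, at 8-fold 37 (1.84%) and 2 (0.0994%), at 16-fold 20 and 1, and at 64-fold 5 and 0. The genes that fell 2-fold or more held 23.1%, 20.9% and 20.1% of the reads of WT libraries 1, 2 and 3, and 3.55%, 3.69% and 3.63% of those of the EDL libraries. For the genes that rose 2-fold or more, the shares were 3.34%, 4.19% and 4.88% in WT and 15.4%, 15.4% and 15.3% in EDL. These sets were chosen by the same contrast, so the shares describe its size and are no test of it.

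**Figure D1:**
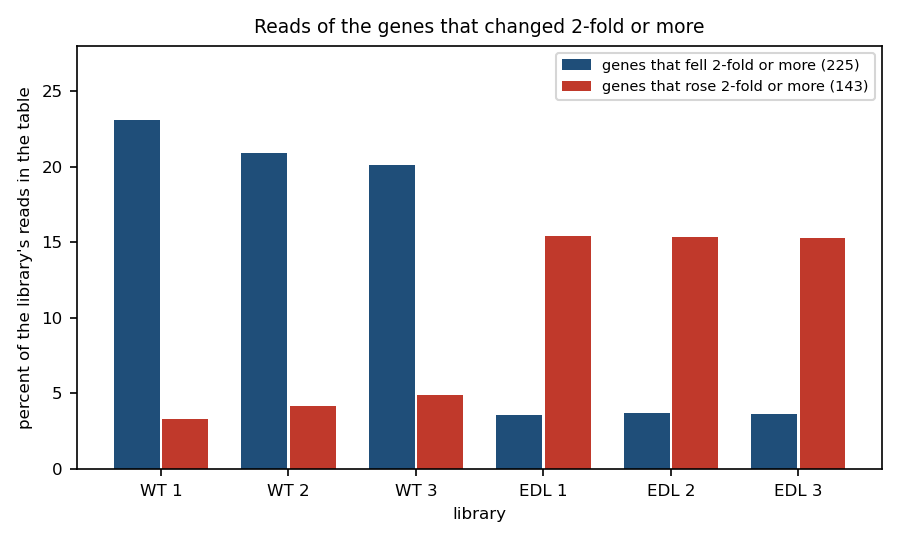
Percent of the reads in the table (y axis) taken by the 225 genes that fell and the 143 genes that rose 2-fold or more, in each of the 6 libraries (x axis). The genes that fell took 20.1% to 23.1% in WT and 3.55% to 3.69% in EDL, and the genes that rose took 3.34% to 4.88% and 15.3% to 15.4%.

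The direction differed with the level in WT, which is itself part of the change. Of 655 genes under 5 FPKM in WT, 331 rose and 135 fell, whereas of 1151 genes between 5 and 50 FPKM 393 rose and 483 fell. Between 50 and 500 FPKM, 61 of 185 rose and 95 fell. Of the 22 genes at 500 FPKM or more 10 fell, 9 of them by 2-fold, and 8 rose. The filter on low values asked for 1 FPKM or more in at least 3 of the 9 libraries, W/Wv included. Of the genes that passed it, 64 reached 1 FPKM in EDL but in no WT library, and 101 in WT but in no EDL library. Such genes are said to have passed the filter only through that group, although W/Wv libraries may also have counted. The part of the filter in these counts was not tested.

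**Figure D2:**
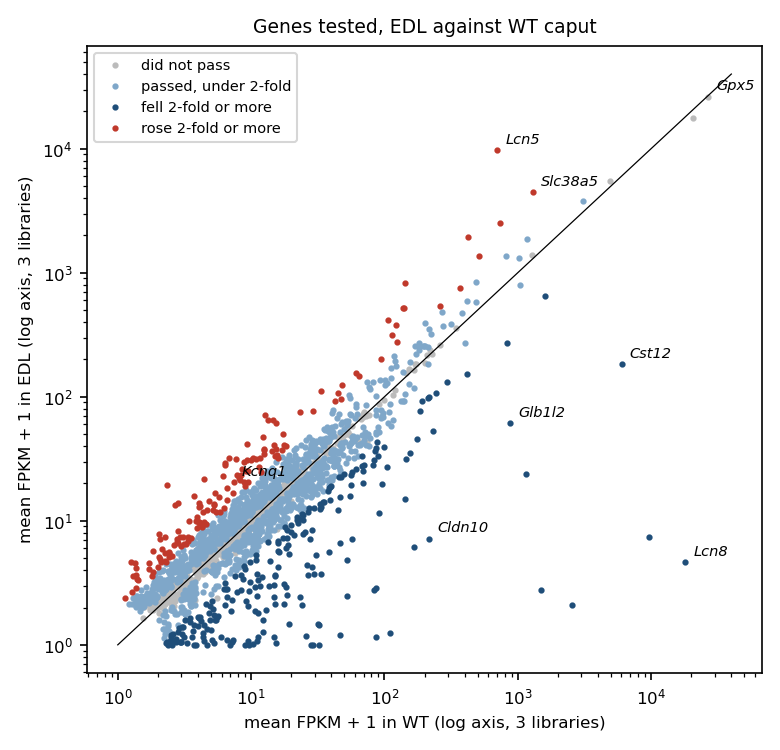
Mean FPKM + 1 of each gene tested in WT (x axis) and in EDL (y axis), 3 libraries each, on log axes, with the line of equal level. Points below the line reach much farther from it than points above it, as the counts of 37 falls and 2 rises of 8-fold or more give, and Gpx5 lies on the line at the upper right.

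On chromosome 2, neighbouring genes that are abundant in WT moved in opposite directions in one place and together in another, and the sequences before their start sites are shown for that reason. Lcn8 and Lcn5 encode lipocalins, carriers of small lipophilic molecules, and lie side by side. Cst12 and Cst8 encode cystatins, inhibitors of cysteine proteases or relatives of these, and also lie side by side. Each line gives the 250 bases before a RefSeq start site of the gene, 5′ to 3′, with matches to 3 motifs in capitals. All are on the + strand of GRCm38.p6, the build that mm10 names.
Lcn8 (chr2:25652868-25653117): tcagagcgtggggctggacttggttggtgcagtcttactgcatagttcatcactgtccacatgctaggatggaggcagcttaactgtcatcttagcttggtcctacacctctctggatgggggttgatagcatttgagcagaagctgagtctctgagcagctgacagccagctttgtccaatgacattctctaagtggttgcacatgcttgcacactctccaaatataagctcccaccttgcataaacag
Lcn5 (chr2:25657702-25657951): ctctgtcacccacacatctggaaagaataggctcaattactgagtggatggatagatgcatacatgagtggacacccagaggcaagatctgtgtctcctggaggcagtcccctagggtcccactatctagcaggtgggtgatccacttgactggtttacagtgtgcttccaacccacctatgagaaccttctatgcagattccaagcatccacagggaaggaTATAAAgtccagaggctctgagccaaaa
Cst12 (chr2:148789115-148789364): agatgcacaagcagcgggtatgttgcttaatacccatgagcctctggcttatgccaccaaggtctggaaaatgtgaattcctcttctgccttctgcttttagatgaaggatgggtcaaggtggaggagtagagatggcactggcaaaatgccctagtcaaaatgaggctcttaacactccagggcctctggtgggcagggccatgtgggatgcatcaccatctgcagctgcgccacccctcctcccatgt
Cst8 (chr2:148798589-148798838): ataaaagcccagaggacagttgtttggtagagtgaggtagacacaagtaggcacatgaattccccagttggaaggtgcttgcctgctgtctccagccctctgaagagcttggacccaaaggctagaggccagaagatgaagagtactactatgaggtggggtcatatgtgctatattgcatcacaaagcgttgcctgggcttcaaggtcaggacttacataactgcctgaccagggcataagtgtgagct

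Lcn8 had 21077, 16622 and 16243 FPKM in WT and 3.83, 2.64 and 4.51 FPKM in EDL. Lcn5 had 308, 186 and 1613 FPKM in WT and 9572, 9906 and 9779.7 FPKM in EDL. Of this pair, Lcn8 was nearly gone in every EDL library and Lcn5 was above its highest WT value in each. Cst12 had 6542, 5123 and 6356 FPKM in WT and 202, 164 and 183 FPKM in EDL, and Cst8 had 2943, 2384 and 2345 FPKM in WT and 1.2, 0.826 and 1.29 FPKM in EDL, so both were far below WT, with more Cst12 left than Cst8.

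The motifs searched on both strands were AGGAAG, a core bound by ETS factors, AGAACA, a half-site of the androgen receptor, and TATAAA, the TATA box. The only match in these 4 windows was TATAAA on the gene strand of Lcn5, beginning at position -28 from the start site of that window. The Lcn5 window ends at base 25657951, inside the gene, whose RefSeq coordinates begin at base 25657932. Windows on chromosome 18 were left out of all the shares that follow. Over the remaining 32851 windows of the table of promoters, 29.5% held AGGAAG, 16.1% AGAACA and 12.4% TATAAA. Over the 2049 windows of the 1616 genes tested that had one, the shares were 27.6%, 10.4% and 5.81%. Of the windows of the 181 genes with one that fell 2-fold or more, 32.9% held AGGAAG, 13.2% AGAACA and 8.55% TATAAA. Windows of the 108 such genes that rose had 30.1%, 15.4% and 7.35%. All 6 of these shares were above those of the genes tested, and for AGAACA and TATAAA below those of the 32851 windows, so the direction depends on the windows they are set against. These are descriptions of letters in the windows and show no binding.

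Beside Lcn8 and Lcn5, the lipocalin run of chromosome 2 held 3 further genes that changed 2-fold or more. Fcna, a ficolin of innate immunity (chr2:25624665-25635440), had 28, 26.3 and 31.5 FPKM in WT and 10.6, 12.6 and 11.9 FPKM in EDL (a log2 change of -1.22 with SE 0.09, limma adjusted p = 3.0e-07). Lcn6, a lipocalin (chr2:25676638-25681608), had 1679.9, 1432 and 1659 FPKM in WT and 738, 569.9 and 652 FPKM in EDL (a log2 change of -1.29 with SE 0.10, limma adjusted p = 4.1e-07). Kcnt1, a sodium-activated potassium channel (chr2:25863791-25918273), had 2.77, 2.41 and 2.03 FPKM in WT and 9.3, 8.61 and 8.75 FPKM in EDL (a log2 change of 1.54 with SE 0.09, limma adjusted p = 4.5e-08). In this run Fcna, Lcn8 and Lcn6 fell, while Lcn5 and Kcnt1 rose, and the groups did not overlap for any of the 5 genes, as in 77.4% of all genes tested. Lcn12, a lipocalin outside this run by the rule used, had 275, 356 and 466 FPKM in WT and 782, 711 and 763 FPKM in EDL (a log2 change of 1.07 with SE 0.15, limma adjusted p = 7.9e-05).

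In the cystatin run, Cst12, Cst8, Cst13 and the transcript 9230104L09Rik all fell. Cst13 (chr2:148820069-148830410) was low in WT, at 1.73, 1.3 and 1.66 FPKM, with 52 reads over the WT libraries and none in EDL. Taking 3 reads over the group as the floor, this is at least 19-fold lower. A run on the same chromosome held Dusp15, Pdrg1 and Xkr7. Dusp15, a dual-specificity phosphatase (chr2:152940995-152952400), had 28.6, 25.5 and 20.2 FPKM in WT and 0.256, 0.106 and 0.193 FPKM in EDL (a log2 change of -4.43 with SE 0.13, limma adjusted p = 1.1e-10). Pdrg1, a gene regulated by p53 and DNA damage, had 247, 212 and 227 FPKM in WT and 55.6, 49.7 and 51.8 FPKM in EDL (a log2 change of -2.10 with SE 0.06, limma adjusted p = 1.6e-10). Xkr7, a membrane protein of the XK family, had 1307 reads over the WT libraries and none in EDL, at least 478-fold lower. These 3 neighbours therefore all fell, by very different amounts.

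Further runs lay on chromosomes 10, 15 and 18. Arhgap9, a GTPase-activating protein, had 24.6, 21.1 and 20.6 FPKM in WT and 1.69, 1.25 and 1.34 FPKM in EDL, and its neighbour Nxph4, a neurexophilin, had 56.3, 51.1 and 47.6 FPKM in WT and 3.13, 4.32 and 3.96 FPKM in EDL (limma adjusted p = 5.8e-11 and limma adjusted p = 3.3e-09). The third gene there, 1700012D01Rik, rose, with a log2 change of 1.26. On chromosome 15, C1ql4, Dnajc22 and Spats2 fell together, with log2 changes of -2.77, -2.65 and -1.19, and on chromosome 18 Mppe1, B430212C06Rik and Cidea did so with -1.02, -1.50 and -1.16. B430212C06Rik and Cidea overlap on the genome, and reads may be shared between them. Since the runs were found by the size of the changes, they describe where such genes lie and no more.

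**Figure D3:**
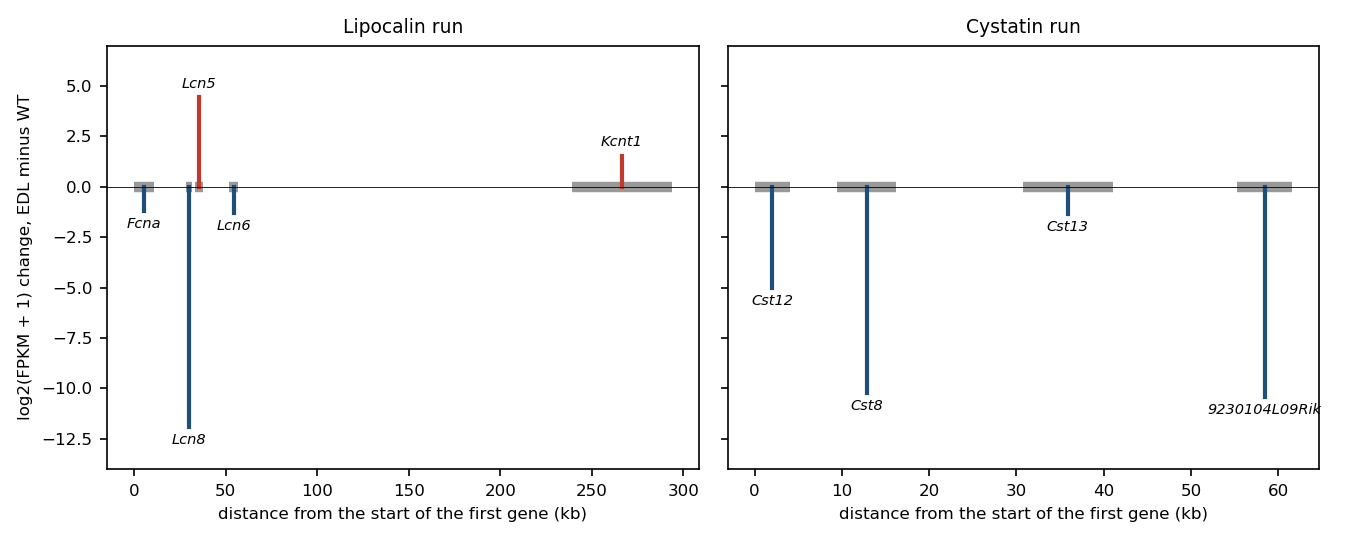
Change in EDL against WT on the log2(FPKM + 1) scale (y axis) for the genes of the lipocalin run and the cystatin run, drawn at their distance from the start of the first gene in kb (x axis), with gene bodies in grey. Lcn5 and Kcnt1 point up and Fcna, Lcn8 and Lcn6 point down, while all 4 genes of the cystatin run point down.

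Transcripts of several proteins of the epithelial surface fell by more than 2-fold. Cldn10, a claudin that forms ion-selective tight junctions (chr14:118787871-118874525), had 232, 208 and 208 FPKM in WT and 5.56, 6.05 and 6.91 FPKM in EDL (a log2 change of -4.92 with SE 0.14, limma adjusted p = 1.4e-09). Cftr, the chloride and bicarbonate channel (chr6:18170687-18322770), had 30.1, 27.3 and 25.9 FPKM in WT and 3.07, 3.42 and 3.18 FPKM in EDL (a log2 change of -2.77 with SE 0.07, limma adjusted p = 4.9e-11). Adgrg2, an adhesion G protein-coupled receptor of efferent duct and epididymal epithelium that bears on fluid uptake (chrX:160390318-160498076), had 883, 808 and 784 FPKM in WT and 251, 282 and 272 FPKM in EDL (a log2 change of -1.62 with SE 0.08, limma adjusted p = 5.4e-09). For each of the 3 genes every EDL library lay below every WT library. Of the 7 junction genes tested, Cldn10 among them, 3 rose, 3 fell and 1 did not pass. Each share was 42.9%, beside 39.4% risen and 35.9% fallen over all genes. Cldn2, which forms pores for cations, fell from 399 ± 10.3 to 273 ± 3.21 FPKM (SD, n = 3 each), and the junction plaque genes Tjp3 and Cgnl1 rose, from 13.3 ± 1.1 to 25.6 ± 0.858 FPKM and from 6.96 ± 0.648 to 14.1 ± 0.908 FPKM.

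Genes of acid-base, ion and water transport were split, with 4 of 9 tested having risen, 4 fallen and 1 not passed. Each share was 44.4%, beside 39.4% risen and 35.9% fallen over all genes. Slc4a4, a sodium-bicarbonate cotransporter, had 31.2, 28.2 and 24.2 FPKM in WT and 7.19, 7.51 and 7.7 FPKM in EDL (a log2 change of -1.76 with SE 0.08, limma adjusted p = 4.3e-09). Slc9a2, a sodium-proton exchanger, had 10.5, 9.9 and 12.5 FPKM in WT and 21, 21.8 and 20.2 FPKM in EDL (a log2 change of 0.88 with SE 0.07, limma adjusted p = 6.4e-07). The cotransporter thus fell and the exchanger rose, each without overlap. Car12, a membrane-bound carbonic anhydrase, rose with 8.85, 10.5 and 15.3 FPKM in WT and 35.5, 38.8 and 35.7 FPKM in EDL (a log2 change of 1.62 with SE 0.15, limma adjusted p = 6.5e-06), and the WT libraries differed among themselves more than the EDL libraries.

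Of 21 ion channel genes tested, 13 rose (61.9%, beside 39.4% of all genes), 7 fell (33.3%, beside 35.9%) and 1 did not pass. Their median log2 change was 0.40 against 0.048 over all genes tested. Of the 21, 4 passed the filter only through the group where they were higher, and over the alternatives 8 to 13 rose and 3 to 7 fell. Kcnq1, a potassium channel of epithelia and heart (chr7:143106877-143427050), had 6.84, 6.56 and 5.81 FPKM in WT and 19.9, 18.9 and 19.9 FPKM in EDL (a log2 change of 1.48 with SE 0.08, limma adjusted p = 1.6e-08). Kcnmb4, a subunit of calcium-activated potassium channels, had 5.41, 6.07 and 8.92 FPKM in WT and 24, 20.5 and 22.1 FPKM in EDL (a log2 change of 1.60 with SE 0.14, limma adjusted p = 3.8e-06). Both genes thus rose with no overlap. The tweety family members Ttyh1 and Ttyh3 moved apart, Ttyh1 from 14.1 ± 1.17 to 1.15 ± 0.219 FPKM and Ttyh3 from 13.5 ± 1.82 to 64.4 ± 0.944 FPKM (SD, n = 3 each), and Ano10, of the anoctamin family, fell from 37.9 ± 2.69 to 13.7 ± 0.608 FPKM.

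Of 50 solute carriers tested, 19 rose, 23 fell and 8 did not pass, shares of 38% and 46% against 39.4% and 35.9% over all genes, and 3 passed the filter through 1 group only. The amino acid transporter Slc38a5 (chrX:8271381-8280179) gained most FPKM of any gene that passed the test after Lcn5, with 1061, 1373 and 1462 FPKM in WT and 4695, 4189 and 4453 FPKM in EDL (a log2 change of 1.79 with SE 0.11, limma adjusted p = 5.6e-08). Slc29a3, an intracellular nucleoside transporter, had 5.79, 5.69 and 8.56 FPKM in WT and 28.9, 31.5 and 31.6 FPKM in EDL (a log2 change of 2.06 with SE 0.12, limma adjusted p = 6.6e-08). For both genes the EDL libraries lay above the highest WT library. Slc29a4, a monoamine transporter of the same family as Slc29a3, fell instead, with 12.1, 12 and 11.6 FPKM in WT and 0.766, 1.08 and 0.852 FPKM in EDL (a log2 change of -2.76 with SE 0.08, limma adjusted p = 1.2e-10).

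**Figure D4:**
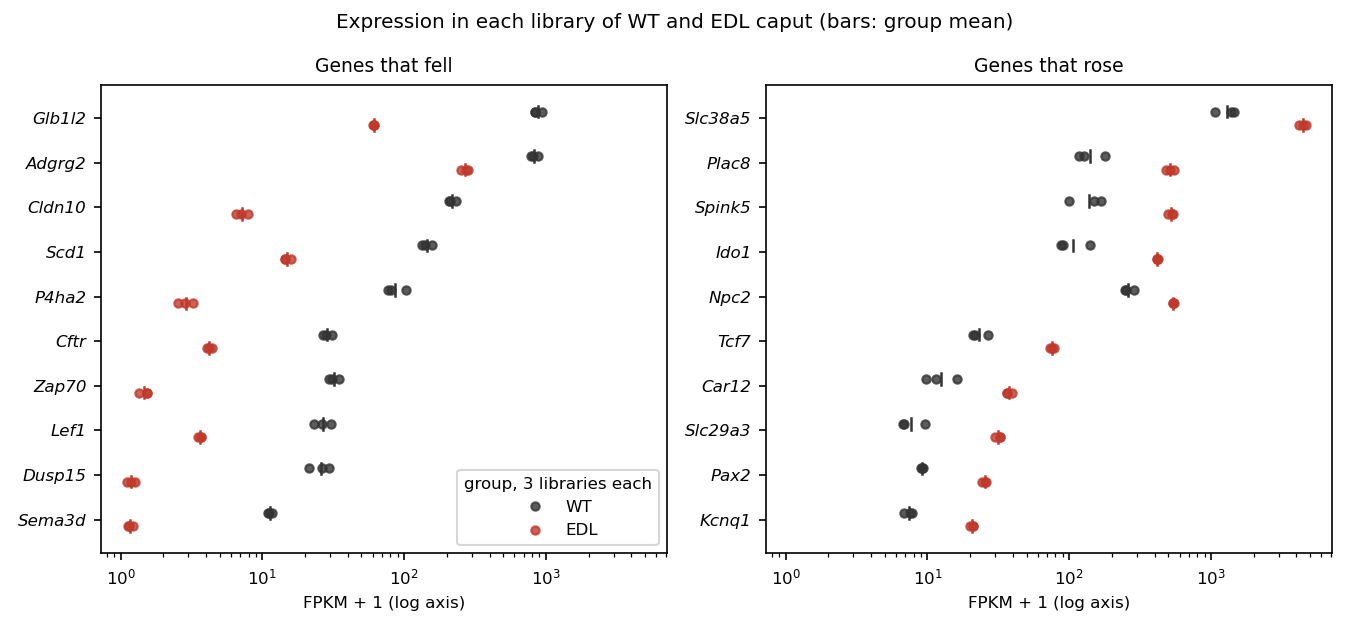
FPKM + 1 (x axis, log scale) of 10 genes that fell and 10 genes that rose in each of the 3 WT and 3 EDL libraries (points), with bars at the mean of a group. The groups do not overlap for any gene shown, from Glb1l2, at 838 to 937 FPKM in WT and 59.3 to 60.7 in EDL, to Kcnq1, at 5.81 to 6.84 and 18.9 to 19.9. The genes were chosen among those that passed the test, some by a rule that asked for no overlap. Of all genes tested, 77.4% had no overlap.

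Further abundant genes, some of them of secreted proteins, moved in both directions. Glb1l2, a relative of beta-galactosidase (chr9:26763044-26806473), had 937, 839 and 838 FPKM in WT and 59.3, 60.7 and 60.5 FPKM in EDL (a log2 change of -3.83 with SE 0.06, limma adjusted p = 1.1e-12). Spink5, a Kazal-type protease inhibitor, had 98.3, 166 and 148 FPKM in WT and 496, 539 and 527 FPKM in EDL (a log2 change of 1.94 with SE 0.16, limma adjusted p = 1.2e-06). Npc2, a cholesterol-binding protein of epididymal fluid and lysosomes, had 247, 249.8 and 284 FPKM in WT and 548, 535 and 537 FPKM in EDL (a log2 change of 1.05 with SE 0.08, limma adjusted p = 2.0e-07). Glb1l2 was lower in every EDL library and the other 2 were higher. Cuzd1, a CUB and zona pellucida domain protein, had 1057, 1205 and 1268 FPKM in WT and 1862, 1878 and 1879 FPKM in EDL (a log2 change of 0.67 with SE 0.08, limma adjusted p = 1.2e-05). D730048I06Rik, which this table lists under its clone name, had 458, 803 and 933 FPKM in WT and 2719, 2401 and 2483 FPKM in EDL (a log2 change of 1.85 with SE 0.22, limma adjusted p = 3.0e-05). Mup6 had 55.8, 48.2 and 50.5 FPKM in WT and 1.4, 2.45 and 0.639 FPKM in EDL (a log2 change of -4.46 with SE 0.23, limma adjusted p = 1.5e-07), and its family of major urinary proteins has near-identical copies that can share reads.

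Little of lumicrine signalling itself could be tested. Of the 9 genes listed for lumicrine signalling, 4 were in the table and 1, the protease gene Ovch2, was tested. It fell, with 1274, 1043 and 1111 FPKM in WT and 22.5, 23.3 and 22.7 FPKM in EDL (a log2 change of -5.58 with SE 0.07, limma adjusted p = 1.2e-13), and the groups did not overlap. Nell2 was below the filter, with 0.121, 0.0436 and 0.137 FPKM in WT and 0.145, 0.262 and 0.248 FPKM in EDL. Nell1, a paralogue, was also below it, with 0.666, 0.827 and 1.23 FPKM in WT and 0.0165, 0 and 0 FPKM in EDL. Nell1 was lower in every EDL library, and Nell2 slightly higher, but neither was tested and their counts are low. Of 6 genes of the ERK cascade, 3 rose, 2 fell and 1 did not pass, and of 4 ERK transcription targets 1 rose, 2 fell and 1 did not pass. Over all genes tested, 39.4% rose and 35.9% fell. Of these 4 targets, 2 passed the filter through 1 group only, Dusp2 through EDL and Fos through WT.

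Of 24 protein phosphatases tested, 15 fell (62.5%, beside 35.9% of all genes), 7 rose and 2 did not pass, and the median log2 change was -0.41 beside 0.048. Of the 24, 3 passed the filter only through the group where they were higher, and over the alternatives 12 to 15 fell. Ptpre, a receptor-type tyrosine phosphatase, had 16.4, 14.5 and 13.6 FPKM in WT and 2.94, 3.46 and 3.28 FPKM in EDL (a log2 change of -1.90 with SE 0.08, limma adjusted p = 3.9e-09). Ptpn5, a tyrosine phosphatase best known from the striatum, had 94.2, 82.5 and 64.7 FPKM in WT and 26.9, 28.1 and 26.4 FPKM in EDL (a log2 change of -1.52 with SE 0.11, limma adjusted p = 4.2e-07). Dusp8, a phosphatase of MAP kinases, had 5.95, 5.35 and 4.77 FPKM in WT and 1.14, 0.784 and 1.38 FPKM in EDL (a log2 change of -1.60 with SE 0.12, limma adjusted p = 1.8e-07). With Dusp15 these were the deepest falls of the list. Zap70, a kinase known from T cell receptor signalling (chr1:36761798-36782821), had 34, 30 and 28.7 FPKM in WT and 0.528, 0.544 and 0.341 FPKM in EDL (a log2 change of -4.44 with SE 0.10, limma adjusted p = 1.4e-11). Zap70 passed the filter only through WT. Of the 16 markers of T and NK lymphocytes, 1, Gzmb, was tested, and it did not pass. Gzmb had 0.758, 0.746 and 0.72 FPKM in WT and 1.03, 1.49 and 0.677 FPKM in EDL, and passed the filter only through EDL. A single gene near the filter cannot show whether lymphocytes changed.

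Lef1 and Tcf7, HMG-box partners of beta-catenin in the WNT pathway, moved in opposite directions. Lef1 (chr3:131110297-131224357) had 29.5, 22.1 and 25.4 FPKM in WT and 2.67, 2.7 and 2.52 FPKM in EDL (a log2 change of -2.87 with SE 0.12, limma adjusted p = 3.9e-09). Tcf7 (chr11:52246527-52283383) had 20.8, 19.9 and 25.8 FPKM in WT and 72.3, 77.2 and 74 FPKM in EDL (a log2 change of 1.71 with SE 0.09, limma adjusted p = 3.0e-08). Lef1 was below its WT range and Tcf7 above it in all 3 EDL libraries. Of the 7 genes of the pathway tested, 5 rose (71.4%, beside 39.4% of all genes), 1 fell and 1, Tcf7l2, did not pass. The receptor Fzd5 rose from 2.52 ± 0.494 to 4.61 ± 0.255 FPKM, and Wnt10b, a ligand, from 0.594 ± 0.0916 to 1.5 ± 0.135 FPKM (SD, n = 3 each). Wnt10b passed the filter only through EDL, and over the alternatives 2 to 5 genes of the pathway rose and 1 fell. Inha, the inhibin alpha subunit, had 5.19, 5.82 and 5.17 FPKM in WT and 28, 27.3 and 26.6 FPKM in EDL (a log2 change of 2.15 with SE 0.08, limma adjusted p = 1.3e-09).

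Among 18 adhesion and guidance genes tested, 8 rose, 6 fell (33.3%, beside 35.9% of all genes) and 4 did not pass. Of the 6 falls, 5 were 2-fold or more, beside 225 of the 723 falls among all genes tested. Of the 18, 2 passed the filter only through WT, Sema3d and Efna2, and over the alternatives 2 to 8 fell. Sema3d, a secreted semaphorin (chr5:12383161-12588953), had 10.2, 9.96 and 10.7 FPKM in WT and 0.218, 0.147 and 0.137 FPKM in EDL (a log2 change of -3.27 with SE 0.08, limma adjusted p = 1.8e-11). Sema4g, a membrane-bound semaphorin, had 15.7, 16.1 and 10.8 FPKM in WT and 2.69, 2.38 and 2.7 FPKM in EDL (a log2 change of -2.06 with SE 0.13, limma adjusted p = 8.7e-08). Cadm4, a cell adhesion molecule, had 8.83, 8.53 and 8.59 FPKM in WT and 1.66, 1.96 and 1.59 FPKM in EDL (a log2 change of -1.82 with SE 0.08, limma adjusted p = 3.9e-09). All 3 fell with no overlap, although WT library 3 had less Sema4g than the other WT libraries. Of 3 proteoglycans tested all 3 rose, beside 39.4% of all genes. Among them was Gpc4, a glypican of the cell surface, with 41.3, 44.4 and 54.6 FPKM in WT and 126, 120.4 and 126 FPKM in EDL (a log2 change of 1.40 with SE 0.09, limma adjusted p = 4.7e-08). Ephb3, an ephrin receptor, rose from 2.07 ± 0.716 to 6.47 ± 0.19 FPKM (SD, n = 3 each).

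Homeobox genes encode transcription factors of the body plan. Of 13 homeobox genes tested 8 rose (61.5%, beside 39.4% of all genes), 1 fell (7.69%, beside 35.9%) and 4 did not pass. Over the alternatives 6 to 11 rose and 1 to 2 fell, and 1 of the 13 passed the filter through 1 group only. Pax2, a factor of kidney and male duct development (chr19:44746601-44838269), had 8, 8.22 and 8.25 FPKM in WT and 23.4, 24.7 and 24.9 FPKM in EDL (a log2 change of 1.47 with SE 0.07, limma adjusted p = 5.9e-09). Hoxd3 had 14.8, 14.3 and 13.1 FPKM in WT and 32.3, 32.2 and 32.7 FPKM in EDL (a log2 change of 1.15 with SE 0.06, limma adjusted p = 1.2e-08). Hoxd4, its neighbour, had 59.1, 56.6 and 47.5 FPKM in WT and 96.8, 96.3 and 96 FPKM in EDL (a log2 change of 0.82 with SE 0.07, limma adjusted p = 7.4e-07). EDL was above WT in every library for these 3 genes. Pbx3, a cofactor of HOX proteins, fell, with 11.4, 11 and 10.8 FPKM in WT and 2.28, 2.56 and 2.64 FPKM in EDL (a log2 change of -1.79 with SE 0.07, limma adjusted p = 1.1e-09).

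Genes that act in the nucleus on DNA, RNA and chromatin rose by small amounts for the most part. Of 50 zinc finger genes tested, 32 rose (64%, beside 39.4% of all genes), 3 fell and 15 did not pass, and 2 passed the filter through 1 group only. Of 41 splicing and RNA-binding genes 27 rose, 2 fell and 12 did not pass, and of 23 histones and chromatin modifiers 17 rose, 1 fell and 5 did not pass. The median log2 changes were 0.26, 0.23 and 0.31, beside 0.048 over all genes, and over the alternatives 19 to 33, 21 to 32 and 16 to 21 of them rose and 1 to 3, 1 to 5 and 1 to 2 fell. With 1 zinc finger gene, no splicing gene and 2 chromatin genes at 2-fold or more, the largest rises were those of Zfp950, Hdac7 and Smarcd3.

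Hdac7, a class II histone deacetylase, had 6.49, 7.61 and 7.41 FPKM in WT and 21.6, 21 and 21.4 FPKM in EDL (a log2 change of 1.45 with SE 0.07, limma adjusted p = 7.2e-09). Smarcd3, a subunit of SWI/SNF remodelling complexes, had 42.2, 40.8 and 48.2 FPKM in WT and 109.8, 99.6 and 109 FPKM in EDL (a log2 change of 1.26 with SE 0.07, limma adjusted p = 1.7e-08). Zfp950 had 8.4, 8.1 and 6.94 FPKM in WT and 27.6, 30.2 and 28.3 FPKM in EDL (a log2 change of 1.76 with SE 0.07, limma adjusted p = 1.3e-09). Hnrnpdl, a binding protein of AU-rich RNA, rose less, from 22.6 ± 1.25 to 39.5 ± 1.78 FPKM (SD, n = 3 each). Kat2b, a histone acetyltransferase, was the chromatin gene that fell, from 17.6 ± 0.805 to 9.48 ± 0.882 FPKM. Zfp36, which promotes decay of AU-rich transcripts, also fell, from 24.6 ± 2.07 to 18.1 ± 0.683 FPKM.

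**Figure D5:**
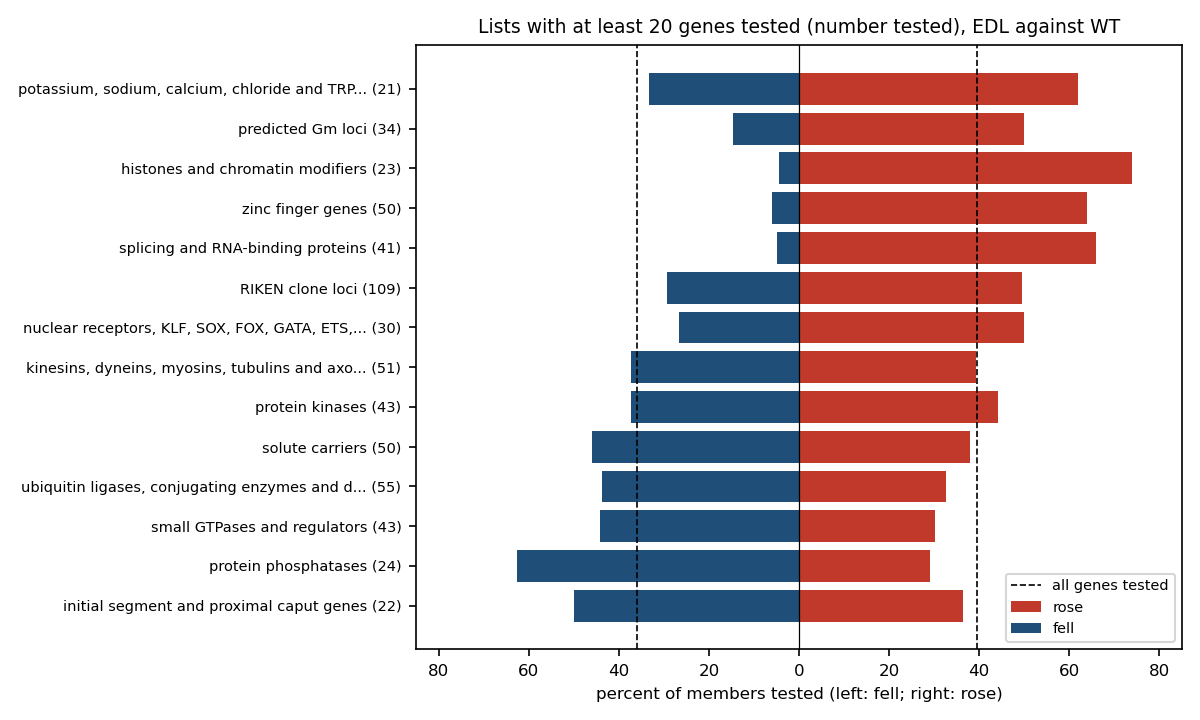
Percent of the members tested that rose (right) or fell (left) in EDL against WT for each list with at least 20 genes tested (rows, number tested in brackets), with dashed lines at the shares of all genes, 39.4% and 35.9%. Chromatin, zinc finger and splicing genes reach past the right line and have few falls, and protein phosphatases reach 62.5% on the left.

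Of 12 fatty acid genes tested, 8 fell (66.7%, beside 35.9% of all genes), 3 rose and 1 did not pass, and the median log2 change was -0.60 beside 0.048. Of the 12, 2 passed the filter only through WT, Acsl6 and Ppara, and over the alternatives 5 to 9 fell. Scd1, the desaturase that makes oleate (chr19:44394450-44407709), had 156, 132 and 140.1 FPKM in WT and 14.8, 13.4 and 13.5 FPKM in EDL (a log2 change of -3.27 with SE 0.08, limma adjusted p = 3.4e-11). Elovl6, an elongase of saturated and monounsaturated chains, had 94.5, 79.1 and 79.5 FPKM in WT and 33.5, 37.1 and 36.1 FPKM in EDL (a log2 change of -1.22 with SE 0.07, limma adjusted p = 2.6e-08). Srebf1, the transcription factor of lipid synthesis, had 118, 102 and 95.3 FPKM in WT and 62.3, 60.6 and 57.2 FPKM in EDL (a log2 change of -0.79 with SE 0.09, limma adjusted p = 6.5e-06). All 3 genes fell, and Elovl6 and Srebf1 were chosen after their values were seen. Elovl2, an elongase of polyunsaturated chains, and Fads3, of the desaturase family, rose, from 16.5 ± 5.17 to 48.9 ± 1.44 FPKM and from 10.6 ± 1.45 to 31.3 ± 0.848 FPKM (SD, n = 3 each). Acly, which makes cytosolic acetyl-CoA, rose slightly, from 378 ± 11.6 to 476 ± 21.7 FPKM.

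Genes of sugar metabolism included 8 that rose (72.7%, beside 39.4% of all genes) and 3 that fell (27.3%, beside 35.9%) among 11 tested. Over the alternatives 6 to 8 rose and 1 to 3 fell, and 3 of the 11 passed the filter through 1 group only. Ldhb, a lactate dehydrogenase subunit, had 121, 121 and 127 FPKM in WT and 287, 268 and 278 FPKM in EDL (a log2 change of 1.16 with SE 0.06, limma adjusted p = 7.2e-09). Ido1, the enzyme that starts tryptophan breakdown, had 88.7, 86.3 and 140.1 FPKM in WT and 417, 417 and 419 FPKM in EDL (a log2 change of 2.02 with SE 0.16, limma adjusted p = 1.2e-06). Both rose without overlap. Mthfd1l, of mitochondrial folate metabolism, rose from 3.14 ± 0.771 to 12.1 ± 0.217 FPKM, and the aldehyde dehydrogenases Aldh2 and Aldh3a2 fell, from 293 ± 27.5 to 130.2 ± 5.44 FPKM and from 86.4 ± 3.78 to 42 ± 0.528 FPKM (SD, n = 3 each).

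Of 4 heat shock genes tested, 3 rose (75%, beside 39.4% of all genes) and 1 fell. Hspa1b, an inducible chaperone, had 10.6, 11.2 and 12.8 FPKM in WT and 34.7, 34.8 and 32.2 FPKM in EDL (a log2 change of 1.48 with SE 0.07, limma adjusted p = 4.0e-09). Its near-identical copy Hspa1a had 3.88, 4.15 and 4.87 FPKM in WT and 13.1, 13 and 11.9 FPKM in EDL, and reads may be split between them. Hsp90aa1 fell, with 128, 128 and 141 FPKM in WT and 89.6, 93.3 and 93 FPKM in EDL (a log2 change of -0.52 with SE 0.06, limma adjusted p = 1.5e-05). Of 5 genes of inflammation and wound response tested 4 rose (80%, beside 39.4% of all genes) and 1 did not pass. The NF-kB regulators Nfkbia and Nfkbiz rose from 20.6 ± 1.11 to 37.8 ± 1.21 FPKM and from 2.24 ± 0.513 to 5.45 ± 0.147 FPKM, and Cdkn1a, a cell cycle inhibitor, had 7.19, 8.66 and 12.1 FPKM in WT and 32.2, 30.2 and 31.2 FPKM in EDL (a log2 change of 1.67 with SE 0.13, limma adjusted p = 1.6e-06).

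Small RNA genes known from germ cells also differed. Henmt1, which methylates the ends of piRNAs, had 4.24, 4.61 and 3.94 FPKM in WT and 0.0273, 0.0654 and 0 FPKM in EDL (a log2 change of -2.35 with SE 0.08, limma adjusted p = 3.2e-10). Piwil4, a PIWI protein, had 3.21, 3.7 and 2.58 FPKM in WT and 0.761, 0.659 and 0.586 FPKM in EDL (a log2 change of -1.31 with SE 0.11, limma adjusted p = 7.0e-07). Tdrd5 had 3, 2.33 and 2.11 FPKM in WT and 0.652, 0.562 and 0.704 FPKM in EDL (a log2 change of -1.08 with SE 0.10, limma adjusted p = 1.3e-06). These 3 fell, and all 3 passed the filter only through WT. Dicer1, which cuts microRNA precursors, rose from 9.04 ± 0.368 to 12.4 ± 0.455 FPKM, and Tdrd1 from 0.309 ± 0.153 to 1.37 ± 0.0504 FPKM (SD, n = 3 each). Tdrd1 passed the filter only through EDL, so that 4 of the 6 genes of the list tested passed it through 1 group only. The summed FPKM of the sperm and spermatid markers was 160, 156 and 158 in WT and 16.1, 16.6 and 17.6 in EDL, and its part in these falls was not tested.

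In 30 genes, the 3 EDL libraries held no read at all where WT had 30 or more. Of these, 24 also had no read in W/Wv, 11 were tested and 9 are RIKEN clone loci. The transcript 9230117E06Rik had 482 reads in WT, at least 176-fold lower in EDL. Lipk, a lipase of the acid lipase family, had 210 reads in WT, at least 76.8-fold lower. The genes with more than 100 reads in WT also included receptors and a neuropeptide gene. Olfr1414, an olfactory receptor gene, had 170, at least 62.1-fold lower, and Sstr5, a somatostatin receptor, had 154, at least 56.3-fold lower. Tac1, the precursor of substance P, had 138 reads, at least 50.4-fold lower. Akap4 and Pgk2, proteins of the sperm tail and of glycolysis in sperm, had 89 and 55 reads, at least 32.5-fold and 20.1-fold lower. The bounds take 3 reads over the group as the floor and cover counting error only.

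The reverse case was a single gene. Car6, a secreted carbonic anhydrase, had no read in the WT libraries and 28, 18 and 15 reads in EDL libraries 1, 2 and 3, at least 18.5-fold higher, and 2 reads in W/Wv. It is too low for the FPKM filter and was not tested by limma.

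Markers of other cell types could be read only in part, as 7 of the 16 cell type lists had no member in the table. Clear and narrow cells are epithelial cells that acidify the lumen with a proton pump. Of 13 markers, 3 were tested and all 3 rose, beside 39.4% of all genes. Atp6v0a4, a proton pump subunit, had 2.6, 3.3 and 2.9 FPKM in WT and 3.82, 4.8 and 4.5 FPKM in EDL (a log2 change of 0.45 with SE 0.09, limma adjusted p = 8.5e-04). Dmrt2 had 3.21, 3.96 and 3.22 FPKM in WT and 7.07, 7.34 and 7.49 FPKM in EDL (a log2 change of 0.90 with SE 0.07, limma adjusted p = 5.4e-07). For both genes the groups did not overlap, and 10 of the 13 markers were not in the table. Summed haemoglobin FPKM, a sign of blood, was 188, 103 and 134 in WT and 171, 15.2 and 82.9 in EDL, and neither erythrocyte marker tested passed.

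The order of the WT libraries was uneven among these genes. Of the 143 genes that rose 2-fold or more, WT library 3 was the highest WT library in 89 and WT library 1 the lowest in 85. Of the 225 that fell, WT library 1 was the highest WT library in 153 and WT library 3 the lowest in 131. Among the 497 genes that did not pass, WT library 3 was highest in 150 and WT library 1 lowest in 146. WT library 3 thus lay nearer to EDL than WT library 1 for most of these genes, as with Plac8, at 116, 126 and 177 FPKM in WT and 549.8, 482 and 515 in EDL, and Krt19, a keratin, at 94.2, 106 and 141 and 344, 295 and 303. Leaving out WT library 1, 2 or 3 gave 1502, 1494 or 1501 genes changed, against 1516 with all.

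The direct comparison of EDL with W/Wv found 281 genes, 14% of those tested. The count was 425 in a fit of only these groups, 174 without EDL library 1 or 3, 187 without EDL library 2 and 181 without W/Wv library 1. Of the 143 genes that rose 2-fold or more in EDL against WT, 40 differed between EDL and W/Wv, and of the 225 that fell, 46. The genes were chosen with the EDL libraries, so no direction is read from these counts. Hoxd3 had 22.8, 23 and 25.7 FPKM in W/Wv (log2 difference 0.43, SE 0.06, limma adjusted p = 7.9e-04, EDL minus W/Wv) and Hoxd4 had 63.3, 65 and 64.5 FPKM (log2 difference 0.58, SE 0.07, limma adjusted p = 3.4e-04), both lower than in EDL. Car12 had 50.5, 55.7 and 50.9 FPKM in W/Wv, a difference that did not pass the test (log2 difference -0.50, SE 0.15, limma adjusted p = 0.055). Every W/Wv library was nevertheless above every EDL library. The SE is pooled over all 9 libraries, and for Car12 the WT libraries, which are not part of this contrast, varied most. Slc29a4 was less low there, at 2.33, 1.96 and 2.06 FPKM (log2 difference -0.72, SE 0.08, limma adjusted p = 2.4e-04). For Glb1l2, at 58.8, 62.4 and 55.3 FPKM in W/Wv, no difference from EDL passed the test (log2 difference 0.03, SE 0.06, limma adjusted p = 0.79).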

How the data were processed

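Caput RNA was made into 9 stranded poly-A libraries, per the labels' protocols. Per the submitters' processing notes, the build was mm10, and Cufflinks 2.2.1 and TopHat2 2.1.1 are named without their roles. For each gene and library the authors deposited normalized FPKM values and a signal, the normalized read count. Whole reads were recovered from that signal (98.8% to 99.0% of values whole, tolerance 0.1). The main test was limma 3.58.1 (R 4.3.3) on log2(FPKM + 1) of 2013 genes with at least 1 FPKM in 3 libraries, all 9 libraries in 1 fit, with Benjamini-Hochberg adjustment over all genes and a threshold of 0.05. The deposited FPKM are not counts, so edgeR 4.0.16 and DESeq2 1.42.0 on recovered reads were alternatives, calling 1523 and 1485 genes. The fits were also run on simulated data with fewer changed genes than here, no change above 2-fold and the same spread in every group. That run does not show their error on the present data. Promoter sequences and coordinates come from RefSeq tables of GRCm38.p6, the build of mm10. Promoters on chromosome 18 were left out, and 1966 genes matched one of the rest. Genes were named by fixed rules of size and list membership, except Dicer1, Elovl6, Gzmb, Nell1, Nell2, Slc9a2, Srebf1, Tcf7l2 and Zfp36, chosen after their values were seen. The lists, the members and the rules were chosen with earlier results of these data known, and wrongly matched symbols were removed from lists after values were seen. The labels do not say that replicate numbers pair the samples, and the main test took no pairing. The sources used here do not say whether counting used the strand. Some genes are not reported here. Intervals and floors cover counting error only. Plots were drawn with matplotlib 3.10.9.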

Additional observations from a re-analysis of the deposited data

How the results depend on the processing

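The count of genes changed in EDL against WT stayed within 1.5 times its value under all alternatives, between 1067 (mean FPKM of 5 or more) and 1766 (edgeR with no filter). Counts at 2-fold moved further: 128 falls with a mean FPKM of 5 or more, and 443 falls and 253 rises with edgeR and no filter, which test fewer and more genes. The count of 281 genes that differ between EDL and W/Wv became 425 in a fit of only these groups, and ranged from 174 to 385 when 1 library was left out (174 without EDL library 1 or 3, 187 without EDL library 2, 181 without W/Wv library 1); the cause was not tested. With the replicate block 1485 genes changed in EDL. Same-numbered WT and EDL libraries deviated with correlations of -0.00282, 0.0844 and 0.0778. The labels state no pairing by number, and so few correlations cannot show whether there is one.

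Of 253 named genes tested, 6 lost their call under at least 1 alternative (Srpr, Eif4g3, Eif3c, Srsf5, Neat1 and Gsn), none of them described above. Directions reversed for Gpx5 and Zc3h7a, neither of which passed the test, and for Eif3c. For Gpx5 the log2 change was -0.072 to 0.027 when 1 library was left out. It was above 0 without WT library 3 (0.027) and without EDL library 2 (0.011). With quantile normalization it was 0, which is no reversal. Zc3h7a had -0.0015 with edgeR and -0.004 with DESeq2. Eif3c had 0.17 with quantile normalization, which raised the median of all genes from 0.048 to 0.122 on the log2 scale. For Eif3c the cause was not tested. Genes with few reads are limited by depth, and genes outside the table were not analysed here.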
